A study of Mus musculus with 12 samples.

Results

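Trem2, Gpnmb, Spp1, Cd9, Cd63, Cd68, Lgals3 and Itgax are used as markers of lipid-associated macrophages, and their transcripts were followed here in mouse livers during a diet that induces steatohepatitis. The 8 genes were given by name and were read through every gene probe whose accession mapped to them, which was 1 probe for each gene, among 28658 named probes of 21609 genes. All 8 passed a filter on dim probes that left 13897 genes for testing. RNA from the livers of male C57BL/6NJcl mice went onto 12 single-colour Agilent expression arrays, 2 for each of 6 groups, so every value below rests on n = 2 a group. Control mice ate the chow CE-2. The other groups ate CDAHFD (A06071302), a high-fat feed with 60 kcal% fat that lacks choline and holds 0.1% methionine by weight. Livers were taken after 1, 2 or 6 weeks, at 7, 8 or 12 weeks of age, in both diets, and the labels name no mutant allele, drug or other agent. The feeds differ in several components at once, and a diet difference covers all of them. The labels do not say that the 2 arrays of a group came from separate mice, so p-values measure only how far these arrays spread, and that spread may be technical.

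Between 40.4 and 44.4% of gene probes were well above background on control arrays and between 45.4 and 49.7% on CDAHFD arrays. Slide 1 held the arrays of 1 and 2 weeks and slide 2 those of 6 weeks, both with both diets, so each diet difference lies within 1 slide, while 6 weeks and slide 2 cannot be told apart in a comparison of weeks. Control replicate 1 at 1 week stood apart, with 227 spots at least 8-fold below every other array. Of these spots, 96.0% lay in 1 corner, and none lay within 5 rows and columns of a marker's probe, the nearest being 7 away from that of Lgals3. Its difference from replicate 2 had an SD of 0.85 log2 across genes, where the corresponding SD elsewhere was 0.29 to 0.49.

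As background, lipid-associated macrophages are macrophages that gather where lipid accumulates or cells die, in fat, artery wall and steatotic liver, and that take up and digest lipid. TREM2 is their surface receptor for lipids and lipoproteins and signals through the adaptor TYROBP and the kinase SYK. GPNMB, CD63 and CD68 are membrane glycoproteins of endosomes and lysosomes, CD9 and CD63 are tetraspanins, galectin-3 (Lgals3) is a secreted lectin that binds galactosides, osteopontin (Spp1) is a secreted ligand of integrins and CD44, and CD11c (Itgax) is an integrin alpha chain of dendritic cells and macrophages. None of these genes is restricted to one cell type: osteopontin is also made by cholangiocytes, and CD9, CD63 and galectin-3 by many cells.

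Upstream sequence is shown for 4 of the genes so that promoters with a match to the AP-1 pattern can be read beside one with no match to any motif searched. RefSeq (GRCm38.p6) gave 9 promoters for the 8 genes, Spp1 having 2, and the 250 bases before each start were read on both strands. The AP-1 pattern was searched as TGANTCA, with any base at its centre. It occurred in 3 of 9, those of Trem2, Cd68 and Itgax, and in 6.75% of 32851 mouse promoters. The letters matched were TGAGTCA in Cd68 and Itgax but TGAATCA in Trem2. In Trem2 the match lay 9 to 3 bases before the start, in Itgax 56 to 50 bases before it, and in Cd68 matches lay at 149 to 143 and at 24 to 18 bases. The PU.1 core GAGGAAG occurred in 3 of 9, those of Trem2, Cd63 and 1 of the promoters of Spp1 (10.6% of all promoters), and TATAAA in that same Spp1 promoter (12.4% of all). The E-box CACGTG (6.02% of all) and the MiT site TCATGTG or TCACGTG (6.28% of all), which overlap where TCACGTG continues an E-box, had no match in any of the 9. The Gpnmb window held none of the 5 motifs. A match is a description of the letters and not of a bound factor. Each sequence runs 5′ to 3′ on the gene's strand and ends at the base before the start. Matches are in capitals (TGANTCA, and in Trem2 also the PU.1 core on the other strand). They span chr17:48346151-48346400 (+) for Trem2, chr7:128129300-128129549 (+) for Itgax, chr11:69666171-69666420 (-) for Cd68 and chr6:49036268-49036517 (+) for Gpnmb.
Trem2: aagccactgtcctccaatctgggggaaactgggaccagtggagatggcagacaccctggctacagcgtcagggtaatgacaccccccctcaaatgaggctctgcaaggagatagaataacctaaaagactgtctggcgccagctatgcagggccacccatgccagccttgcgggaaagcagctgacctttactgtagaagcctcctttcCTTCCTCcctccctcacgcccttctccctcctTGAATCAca
Itgax: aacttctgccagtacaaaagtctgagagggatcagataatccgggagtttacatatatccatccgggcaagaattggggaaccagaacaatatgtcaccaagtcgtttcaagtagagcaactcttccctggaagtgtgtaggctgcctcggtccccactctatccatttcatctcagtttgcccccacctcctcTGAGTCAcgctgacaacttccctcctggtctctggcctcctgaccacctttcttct
Cd68: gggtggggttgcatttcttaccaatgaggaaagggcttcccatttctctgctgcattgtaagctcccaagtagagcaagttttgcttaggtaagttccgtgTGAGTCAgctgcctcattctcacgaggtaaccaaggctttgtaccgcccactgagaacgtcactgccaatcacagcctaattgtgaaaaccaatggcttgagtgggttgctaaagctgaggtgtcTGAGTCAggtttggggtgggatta
Gpnmb: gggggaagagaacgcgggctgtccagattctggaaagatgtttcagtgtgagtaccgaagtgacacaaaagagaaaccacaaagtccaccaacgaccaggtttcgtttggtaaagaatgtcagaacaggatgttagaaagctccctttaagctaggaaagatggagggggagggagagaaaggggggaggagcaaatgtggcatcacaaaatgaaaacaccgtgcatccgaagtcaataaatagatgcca

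The first question was whether the diet raised the markers and how soon. All 8 were higher in CDAHFD livers at 1, 2 and 6 weeks, and on every one of the 6 CDAHFD arrays each marker read above all 6 control arrays. Higher calls were made for 25.9, 22.9 and 24.5% of all genes at 1, 2 and 6 weeks, and 21% of all genes had groups that did not overlap in this way. In the average over weeks all 8 were called, against 35.6% of genes called higher. Gpnmb is counted here though it was below background on all 6 control arrays and passed the filter through its CDAHFD groups alone. Its higher calls and its separation are thus no independent support. Itgax was below background on 1 control array at 1 week. With only probes above background on all arrays, which leaves out both genes, 6 of 6 markers were called higher at each week. The median difference of the 8 genes was 3.30, 4.24 and 4.47 on the log2 scale at the 3 weeks, relative to the median of all genes tested, which itself stood at 0.13, 0.05 and 0.03. All differences and folds below are relative to that median, CDAHFD minus control, with the standard error of the fit. P-values and calls test the fitted difference against 0 before that median was taken off. RNA was taken from whole liver, and fewer or more cells of a type and less or more RNA per cell cannot be told apart. With each array's 75th percentile taken over all gene probes, 2296 of 6365 genes called at 1 week were higher, where the main scaling gave 3605 of 5689, and all 8 markers were called higher under both.

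**Figure D1:**
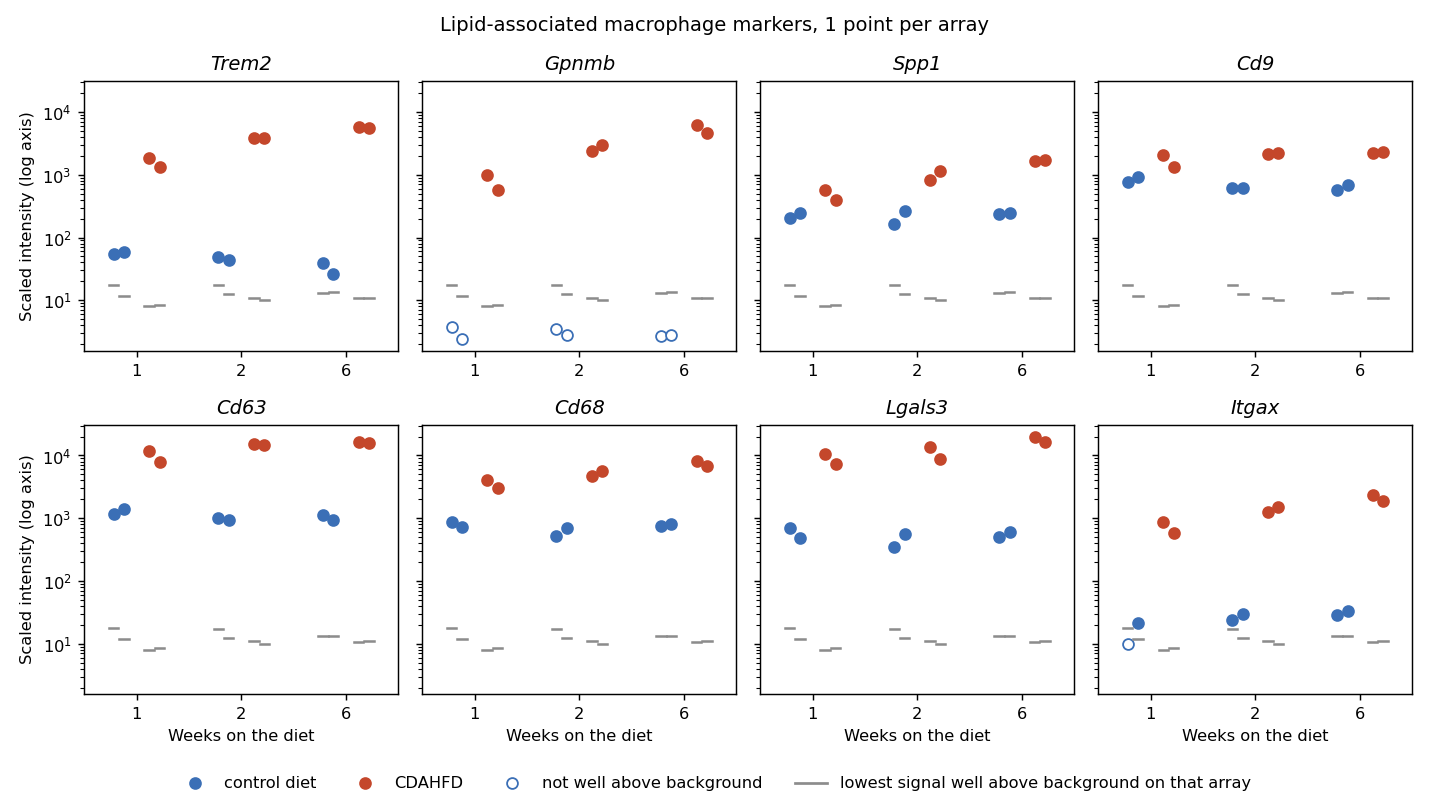
Scaled intensity (log axis) of each marker on each of the 12 arrays by weeks on the diet, with control arrays in blue, CDAHFD arrays in red, open circles where a spot was not well above background, and grey bars at the lowest signal well above background on that array. Each CDAHFD point lies above all control points of its panel, and the 6 control points of Gpnmb lie below the grey bars.

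Values per array are given as scaled intensity, the processed spot intensity with each array's 75th percentile brought to a common value. They compare arrays for 1 gene, and levels of different genes cannot be compared. Among the receptors, Trem2 read 55.6 and 58.7 on control arrays at 1 week, 48.9 and 43.5 at 2 weeks, and 39.9 and 25.8 at 6 weeks. On CDAHFD arrays it read 1848 and 1307, then 3876 and 3877, then 5806 and 5511. The lowest CDAHFD value thus stood far above the highest control value, and no array of a later week fell below one of an earlier week on CDAHFD. Trem2 rose by 4.64 ± 0.21, 6.34 ± 0.21 and 7.43 ± 0.21 at 1, 2 and 6 weeks, or 24.9-, 81.1- and 172-fold (adjusted p = 1.4e-06, 8.2e-08 and 2.4e-08). Its rank by size among the 13897 genes went from 43 to 10 to 3. Normexp background correction, which adds an offset and so compresses dim values, gave 3.48, 5.04 and 5.85, and the controls of 2 and 6 weeks in place of those of 1 week gave 5.27 at 1 week.

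Itgax, the CD11c chain, read 9.79 and 21.6 on control arrays at 1 week, 23.8 and 29.8 at 2 weeks, and 29.1 and 32.7 at 6 weeks, and the lowest of these, control replicate 1 at 1 week, was not well above background. On CDAHFD it read 884 and 583, then 1271 and 1496, then 2385 and 1907. The diets were well separated at each week. Since 1 of the 2 control arrays measured it at 1 week, its 1-week size is given as a bound, with the array below background set at its lowest signal well above background, an alternative added after the data were seen. It was at least 33.5-fold higher at 1 week and rose by 5.64 ± 0.34 and 6.08 ± 0.34, or 49.9- and 67.5-fold, at 2 and 6 weeks (adjusted p = 5.7e-06, 2.9e-06 and 1.2e-06). As fitted, the 1-week difference was 5.50 ± 0.34. Against the controls of 2 and 6 weeks the 1-week difference was 4.58, and normexp gave 2.83, 3.78 and 4.56.

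Gpnmb, the lysosomal glycoprotein, was not well above background on any of the 6 control arrays, where it read between 2.44 and 3.76. On CDAHFD it read 1001 and 566 at 1 week, 2422 and 3008 at 2 weeks, and 6259 and 4559 at 6 weeks. All 6 CDAHFD arrays were well above background and rose from week to week, and only a bound can be given for the size of the change. It was at least 47.5-, 177- and 391-fold higher at 1, 2 and 6 weeks, with the control arrays set at their lowest signal well above background. The bounds were not tested. The limma fit, with the control values below background as read, gave adjusted p = 1.2e-06, 8.2e-08 and 2.4e-08. Gpnmb passed the filter on dim probes through its CDAHFD groups alone. Normexp, which replaces the background step, gave log2 differences of 3.54, 5.60 and 6.71.

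Of the secreted ligands, galectin-3 (Lgals3) read between 354 and 709 on the 6 control arrays. On CDAHFD it read 10701 and 7332 at 1 week, 13824 and 8930.1 at 2 weeks, and 19861 and 16411 at 6 weeks. The weeks overlap on CDAHFD, where 1 array of 2 weeks lay below 1 of 1 week. Lgals3 rose by 3.80 ± 0.31, 4.59 ± 0.31 and 5.0 ± 0.31, or 13.9-, 24.0- and 31.9-fold (adjusted p = 3.0e-05, 8.1e-06 and 3.8e-06).

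Osteopontin (Spp1) read between 167 and 262 on control arrays, and 563 and 395 on CDAHFD at 1 week. It read 822 and 1149.8 at 2 weeks and 1670.2 and 1722 at 6 weeks, so that each week on CDAHFD lay above the one before. Its rise was the smallest but one at 1 week, 0.96 ± 0.24 (1.94-fold, adjusted p = 0.00548), and reached 2.17 ± 0.24 and 2.77 ± 0.24 (4.49- and 6.84-fold, adjusted p = 7.1e-05 and 1.2e-05). Without CDAHFD replicate 1 at 1 week the 1-week difference was 0.73 with adjusted p = 0.0617, the only call of a diet difference among the 8 genes that was lost against the controls of its own week in any setting run.

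The tetraspanin Cd63 read between 926 and 1389.8 on control arrays. On CDAHFD it read 11709 and 8016, then 15314 and 14579, then 16583 and 16093, so most of its rise was in place at 2 weeks. It rose by 2.79 ± 0.17, 3.90 ± 0.17 and 3.95 ± 0.17, or 6.92-, 14.9- and 15.5-fold (adjusted p = 3.6e-06, 4.0e-07 and 2.5e-07). The other tetraspanin, Cd9, changed least of the 8. It read between 574 and 917 on control arrays, and 2070.3 and 1342, 2111 and 2212, and 2202 and 2307 on CDAHFD at the 3 weeks. The groups did not overlap at any week, and the replicates of 1 week on CDAHFD differed more than those of later weeks. Cd9 rose by 0.87 ± 0.19, 1.74 ± 0.19 and 1.80 ± 0.19, or 1.82-, 3.35- and 3.48-fold (adjusted p = 0.00191, 4.3e-05 and 2.9e-05), at ranks 2307, 1029 and 1166.

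Cd68, a lysosomal glycoprotein that marks macrophages in general, read between 528 and 882 on control arrays. On CDAHFD it read 4107 and 3061, then 4778 and 5606, then 8084 and 6885. Every later week lay above the earlier ones on CDAHFD, and the highest control array lay far below the lowest CDAHFD array. It rose by 2.03 ± 0.18, 3.04 ± 0.18 and 3.23 ± 0.18, or 4.08-, 8.23- and 9.35-fold (adjusted p = 2.2e-05, 2.3e-06 and 9.4e-07). At 1 week on CDAHFD all 8 markers read higher in replicate 1 than in replicate 2, whereas 3 of 8 did so in the controls of that week.

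**Figure D2:**
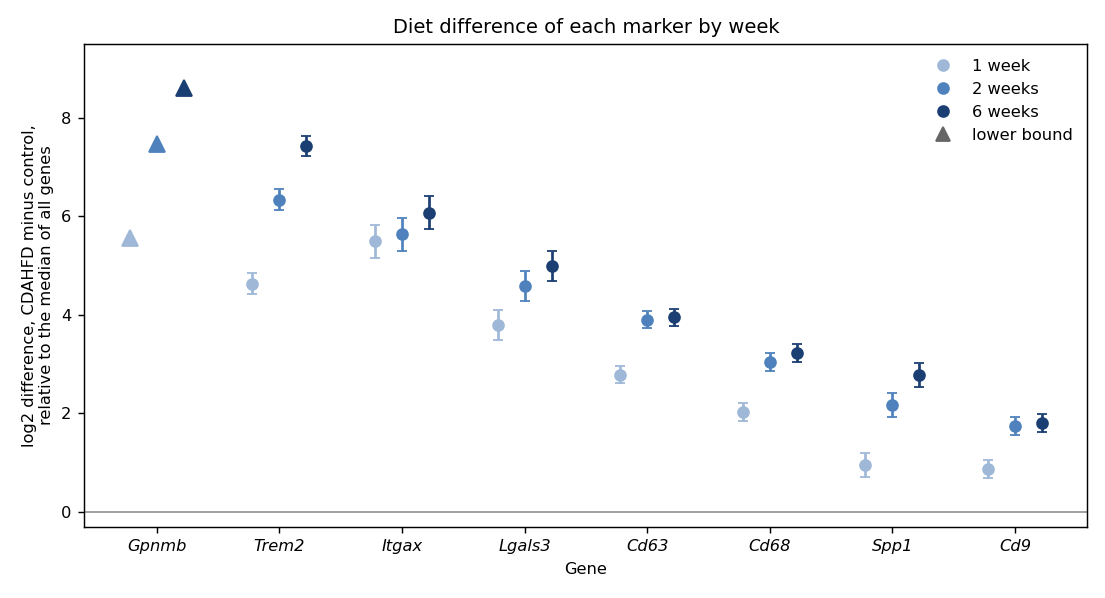
Log2 difference of each marker, CDAHFD minus control with the all-gene median taken off, at 1, 2 and 6 weeks, with the standard error of the fit as bars and triangles for the lower bounds of Gpnmb. The value of Itgax at 1 week is as fitted, with 1 of 2 control arrays below background. The differences run from 0.87 for Cd9 at 1 week to 7.43 for Trem2 at 6 weeks among genes measured on both diets.

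A second comparison asked whether the diet difference itself changed between weeks. Tested over all 3 weeks (F test of diet by week), it changed for Trem2 (adjusted p = 0.00822) and Gpnmb (adjusted p = 0.0212), 2 of 8 markers, against 2.41% of all genes. The rest were at adjusted p = 0.0553 (Cd63 and Spp1), 0.0718 (Cd68), 0.138 (Cd9), 0.328 (Lgals3) and 0.763 (Itgax). From 1 to 6 weeks the difference grew for 5 of 8 markers, against 2.51% of genes: Gpnmb by 3.01 ± 0.43, Trem2 by 2.73 ± 0.29, Spp1 by 1.75 ± 0.34, Cd68 by 1.13 ± 0.26 and Cd63 by 1.1 ± 0.24. Trem2 (adjusted p = 0.00443) and Gpnmb (adjusted p = 0.00916) kept that call in every setting that could be run, with Trem2 between 2.30 and 3.05. Calls of Spp1 (adjusted p = 0.0249), Cd63 (adjusted p = 0.0334) and Cd68 (adjusted p = 0.0395) were lost with median centring, and in 4, 11 and 13 of the 22 alternatives in all. Itgax grew by 0.52 ± 0.47 (adjusted p = 0.567), Lgals3 by 1.13 ± 0.44 (adjusted p = 0.171) and Cd9 by 0.87 ± 0.26 (adjusted p = 0.0875), none of them called, though normexp gave Itgax 1.65 with adjusted p = 0.0124. The value of Itgax rests on a 1-week control group with 1 of 2 arrays below background. Because Gpnmb was below background in the controls of every week, its growth is read better from the CDAHFD arrays alone.

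Between 1 and 2 weeks the growth was called for Trem2 (1.65 ± 0.29, adjusted p = 0.0310), against 0.461% of genes called higher, and this was lost in 10 of 22 alternatives, with adjusted p of up to 0.129. Between 2 and 6 weeks limma called the growth of 0 of 8 markers and of 0 genes in all, although Trem2 (1.06 ± 0.29) and Gpnmb (1.18 ± 0.43) had unadjusted p under 0.05.

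Within CDAHFD the mean level of each marker was higher at 2 weeks than at 1 week and higher again at 6 weeks, as for 26.3% of all genes. Levels changed over the weeks for Gpnmb (F test, adjusted p = 0.00578), Trem2 (0.00675), Spp1 (0.0121) and Cd68 (0.0297), 4 of 8, against 3.09% of genes. From 1 to 6 weeks Gpnmb rose by 2.83 ± 0.30, Trem2 by 1.87 ± 0.21, Spp1 by 1.85 ± 0.24, Itgax by 1.58 ± 0.34, Cd68 by 1.08 ± 0.18 and Cd63 by 0.76 ± 0.17, which are 6 of 8 against 3.87% of genes called higher. The calls of Itgax and Cd63 were lost in 4 of 21 and 6 of 22 alternatives. Lgals3 (1.03 ± 0.31, adjusted p = 0.0837) and Cd9 (0.44 ± 0.19, adjusted p = 0.194) were not called. The order of the groups was thus 6, 2 and 1 weeks on CDAHFD and then the controls for every marker. Neighbours in that order differed beyond their spread from 1 to 2 weeks for Gpnmb (1.85 ± 0.30, adjusted p = 0.0428) and Trem2 (1.32 ± 0.21, adjusted p = 0.0396), against 0.13% of genes, and 11 alternatives ended each of these calls. From 2 to 6 weeks limma called 0 of 8 higher, and 0 genes in all were called higher. At an unadjusted p under 0.05, 5 of 8 were higher, against 5.3% of all genes. Without CDAHFD replicate 2 at 1 week, the lower array of that group for all 8 markers, the F test called 0 of 8, while the 6-week rises of Gpnmb and Trem2 kept their calls.

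**Figure D3:**
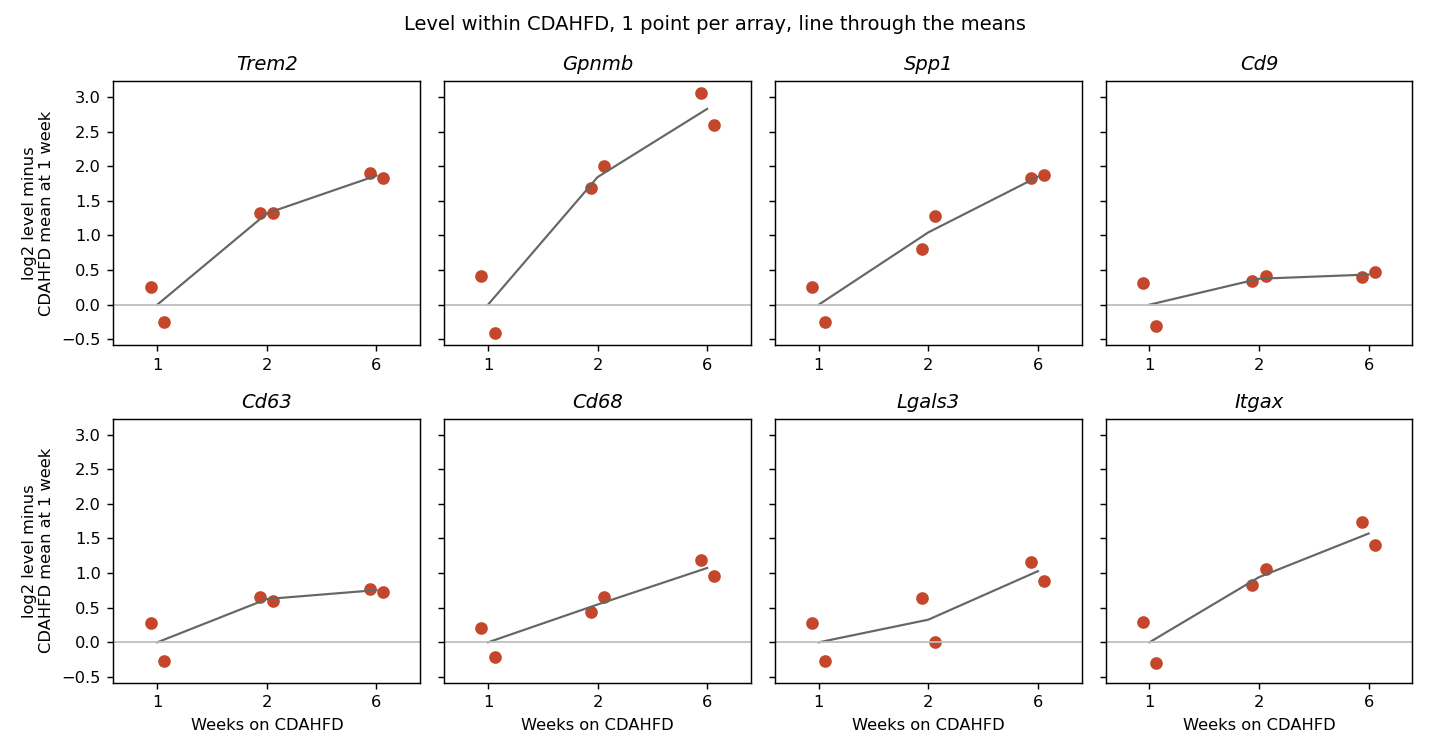
Log2 level of each marker on the 6 CDAHFD arrays by weeks, minus its mean at 1 week, with a point per array and a line through the group means. Gpnmb climbs by 2.83 to 6 weeks and Cd9 by 0.44.

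Control livers gave the background for age and slide. Over the weeks on the control diet limma called 0 of 8 markers by F test, against 11.5% of genes, with Trem2 (adjusted p = 0.0574) and Itgax (adjusted p = 0.104) at an unadjusted p under 0.05. Trem2 was lower at 6 weeks than at 1 week by single contrast (-0.86 ± 0.21, adjusted p = 0.0240), against 7.33% of genes called lower. Median centring, normexp and leaving out control replicate 1 or 2 at 1 week or control replicate 2 at 6 weeks each ended that call. Itgax stood at 1.06 ± 0.34 (adjusted p = 0.0551) in the same contrast, with 8.58% of genes called higher. That value includes control replicate 1 at 1 week, which was below background. Without that array it was 0.48, and without control replicate 2 at 1 week it was 1.65. Among the alternatives that measured Itgax on all 12 arrays, array weights alone called it higher in this contrast.

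The profiles over the 6 groups, each centred on its mean, were closest between Cd63 and Cd68, with a root mean square difference of 0.42 log2, then between Cd68 and Spp1 (0.47), Cd63 and Lgals3 (0.49) and Cd9 and Spp1 (0.50). With Gpnmb taken at its control values below background, Trem2 was nearest to Itgax (0.60), and Gpnmb lay 1.70 or more from every other marker. The distances of Gpnmb are therefore no exact sizes, and none was computed at its bounds. Whether Itgax or Gpnmb lies nearer to Trem2 is thus not settled. Among all genes tested, Trem2 was most like Ly6d (0.29), the myeloid lectin Clec4d (0.40) and the metalloprotease Adam8 (0.41), and Itgax most like Adam8 (0.39), Clec4d (0.43) and the chemokine Ccl4 (0.43). The nearest genes to Gpnmb were Vsig8 (1.1), Ubd (1.58) and Clec4d (1.58), with Gpnmb taken at its values below background. Spp1 was most like the potassium channel Kcnn4 (0.08), Cd200 (0.11) and Shc2 (0.14), and Cd9 most like Adam15 (0.06), Akr1b3 (0.06) and Efemp2 (0.07). Cd63 was nearest to Rab7b (0.06), Thbs2 (0.10) and Ifi27l2b (0.10), Cd68 to Cyth4 (0.08), Ccl6 (0.11) and Cd300c2 (0.12), and Lgals3 to Bcl2a1c (0.18), S100a4 (0.19) and Ccdc120 (0.28). These are descriptions over 6 group means of the same 12 arrays.

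Around TREM2, the adaptor and kinase transcripts rose with the receptor while transcripts of its lipoprotein ligands did not. Of 11 genes for ligands, adaptors, signalling and shedding, 7 were higher and 2 lower at 1 week, 7 and 2 at 2 weeks, and 8 and 0 at 6 weeks, where 2 were lower at an unadjusted p under 0.05. Lower calls were made for 15, 14.9 and 16.2% of all genes at the 3 weeks. The adaptor Tyrobp rose by 1.79 ± 0.24, 2.61 ± 0.24 and 2.81 ± 0.24, and the kinase Syk by 2.14 ± 0.23, 2.80 ± 0.23 and 3.16 ± 0.23. Vav1, an exchange factor, rose by 2.47 ± 0.21 and the phospholipase Plcg2 by 2.26 ± 0.22 at 6 weeks. Apoe, an apolipoprotein that TREM2 binds, was at -1.05 ± 0.16, -0.65 ± 0.16 and -0.40 ± 0.16 (adjusted p = 0.00124, 0.0124 and 0.0874), and Clu, another, at -0.998 ± 0.16, -0.61 ± 0.16 and -0.42 ± 0.16. Quantile normalization took Apoe to -0.08 and 0.04 and Clu to -0.15 and 0.01 at 1 and 2 weeks, with no call. At 6 weeks other scalings went the other way. Median centring called Apoe lower (adjusted p = 0.0411), and the percentile over all gene probes called Apoe (adjusted p = 0.0187) and Clu (adjusted p = 0.0174) lower.

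Other genes described in lipid-associated macrophages were mostly higher as well. Of 19 measured, 12 were higher and 1 lower at 1 week, 15 higher at 2 weeks and 18 higher at 6 weeks, with medians of 0.94, 1.56 and 1.69. None was lower at 2 or 6 weeks in the limma fit, adjusted or unadjusted. Ms4a7, a membrane protein of macrophages, rose by 2.21 ± 0.26, 3.22 ± 0.26 and 4.36 ± 0.26, and Capg, an actin-capping protein, by 1.94 ± 0.15, 3.58 ± 0.15 and 4.15 ± 0.15. The proton pump subunit Atp6v0d2 rose by 2.04 ± 0.41, 2.90 ± 0.41 and 3.68 ± 0.41. Mmp12, the macrophage elastase, was below background on both control arrays at 1 and 6 weeks and at least 7.04- and 28.3-fold higher there, though normexp gave 0.75 at 1 week with adjusted p = 0.231. The fatty acid binding proteins differed from each other, with Fabp4 at 1.2 ± 0.17, 1.56 ± 0.17 and 1.69 ± 0.17 and Fabp5 at -1.20 ± 0.26 (adjusted p = 0.00976, or 0.0538 with quantile normalization), 0.46 ± 0.26 (adjusted p = 0.158) and 1.00 ± 0.26 (adjusted p = 0.0108).

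Of 9 receptors of osteopontin measured, 8 were higher at 1 week, 6 at 2 weeks and 9 at 6 weeks, and none was lower even at an unadjusted p under 0.05, though the percentile over all gene probes left 5, 5 and 6 of them called and normexp called 1 lower at 1 week. Cd44 rose by 1.54 ± 0.15, 1.80 ± 0.15 and 2.61 ± 0.15, and the integrin chain Itga4 by 2.83 ± 0.29, 2.78 ± 0.29 and 2.79 ± 0.29. Smaller differences were those of Itgav (0.81 ± 0.17, 0.61 ± 0.17 and 0.94 ± 0.17), Itga8 (1.28 ± 0.20 at 6 weeks) and Itgb5 (1.07 ± 0.10 at 6 weeks). Normexp ended the calls of Itgav at all 3 weeks (0.31, 0.33 and 0.59), and quantile normalization that at 2 weeks.

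Relatives of the markers moved less uniformly. Of 24 other tetraspanins, 8 were higher and 3 lower at 1 week, 9 and 4 at 2 weeks, and 11 and 5 at 6 weeks, with medians of 0.10, 0.06 and 0.13. Cd53, a tetraspanin of leukocytes, rose by 2.08 ± 0.32 (0.79 with normexp, adjusted p = 0.0678), 2.57 ± 0.32 and 2.57 ± 0.32 and Tspan13 by 1.41 ± 0.15, 2.34 ± 0.15 and 2.21 ± 0.15. Tspan8 was called at 6 weeks (2.79 ± 0.45), where Tspan5 was at least 6.43-fold higher than controls below background. Cd81 stood at -0.33 ± 0.11 (adjusted p = 0.0483) at 6 weeks, and Cd82 at -0.13 ± 0.13 (adjusted p = 0.585). Median centring, quantile normalization and normexp each ended the call of Cd81 (adjusted p = 0.270, 0.520 and 0.256). Itgb2, the beta chain that pairs with CD11c, rose by 2.24 ± 0.30, 3.42 ± 0.30 and 3.49 ± 0.30, and Itgal, another alpha chain, by 1.64 ± 0.20, 1.76 ± 0.20 and 2.16 ± 0.20. Itgam, the CD11b chain, was lower at 1 week (-1.09 ± 0.26, adjusted p = 0.0148) and at -0.08 ± 0.26 and 0.33 ± 0.26 later.

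Galectins other than Lgals3 were split. Of 6 measured, 4 were higher and 1 lower at 1 week, 3 and 1 at 2 weeks and 2 and 1 at 6 weeks. Lgals1 rose by 1.4 ± 0.21, 1.71 ± 0.21 and 1.75 ± 0.21 and the galectin-binding Lgals3bp by 0.45 ± 0.11, 1.17 ± 0.11 and 0.85 ± 0.11, its 1-week call ending with the percentile over all gene probes (adjusted p = 0.0649), whereas Lgals9 fell (-0.95 ± 0.16, -0.64 ± 0.16 and -0.89 ± 0.16), with its 2-week call ended by median centring. Among 5 other triggering receptors of the TREM family, 2, 3 and 3 were called higher at the 3 weeks, all of them dim, and normexp left 0, 0 and 1 of these calls. Their median was 1.12 and 1.53 at 1 and 2 weeks, or -0.03 and -0.14 with genes below background at their bounds. Treml4 stood at 1.58 ± 0.24, 1.53 ± 0.24 and 1.48 ± 0.24, Treml1 was at least 4.72- and 7.92-fold higher at 2 and 6 weeks, and Trem1 was at -0.09 ± 0.15, -0.43 ± 0.15 and -0.35 ± 0.15 with no call, where the percentile over all gene probes (adjusted p = 0.00835 and 0.0100) and quantile normalization (adjusted p = 0.0208 and 0.0355) called it lower at 2 and 6 weeks.

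The lysosomal membrane proteins related to CD68 did not rise. Lamp2 was at -0.47 ± 0.11, -0.56 ± 0.11 and -0.62 ± 0.11 (adjusted p = 0.0329, 0.00482 and 0.00205), Lamp3 at 0.00 ± 0.14, -0.63 ± 0.14 and -0.60 ± 0.14, and Lamp1 at -0.75 ± 0.13, -0.30 ± 0.11 and -0.17 ± 0.11, with 1 CDAHFD value missing at 1 week. Limma called 0 of 3 higher and 2 lower at each week, none was higher at an unadjusted p under 0.05, and median centring left 0, 0 and 1 of the lower calls. Of the 4 MiT transcription factors, which control lysosomal genes, 2, 3 and 3 were called higher at the 3 weeks. Tfec stood at 1.49 ± 0.36, 2.15 ± 0.36 and 2.11 ± 0.36, Mitf at 0.51 ± 0.17, 0.93 ± 0.17 and 0.79 ± 0.17, and Tfeb at 0.36 ± 0.21, 0.72 ± 0.21 and 1.08 ± 0.21. Normexp left 0, 1 and 1 of these calls.

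**Figure D4:**
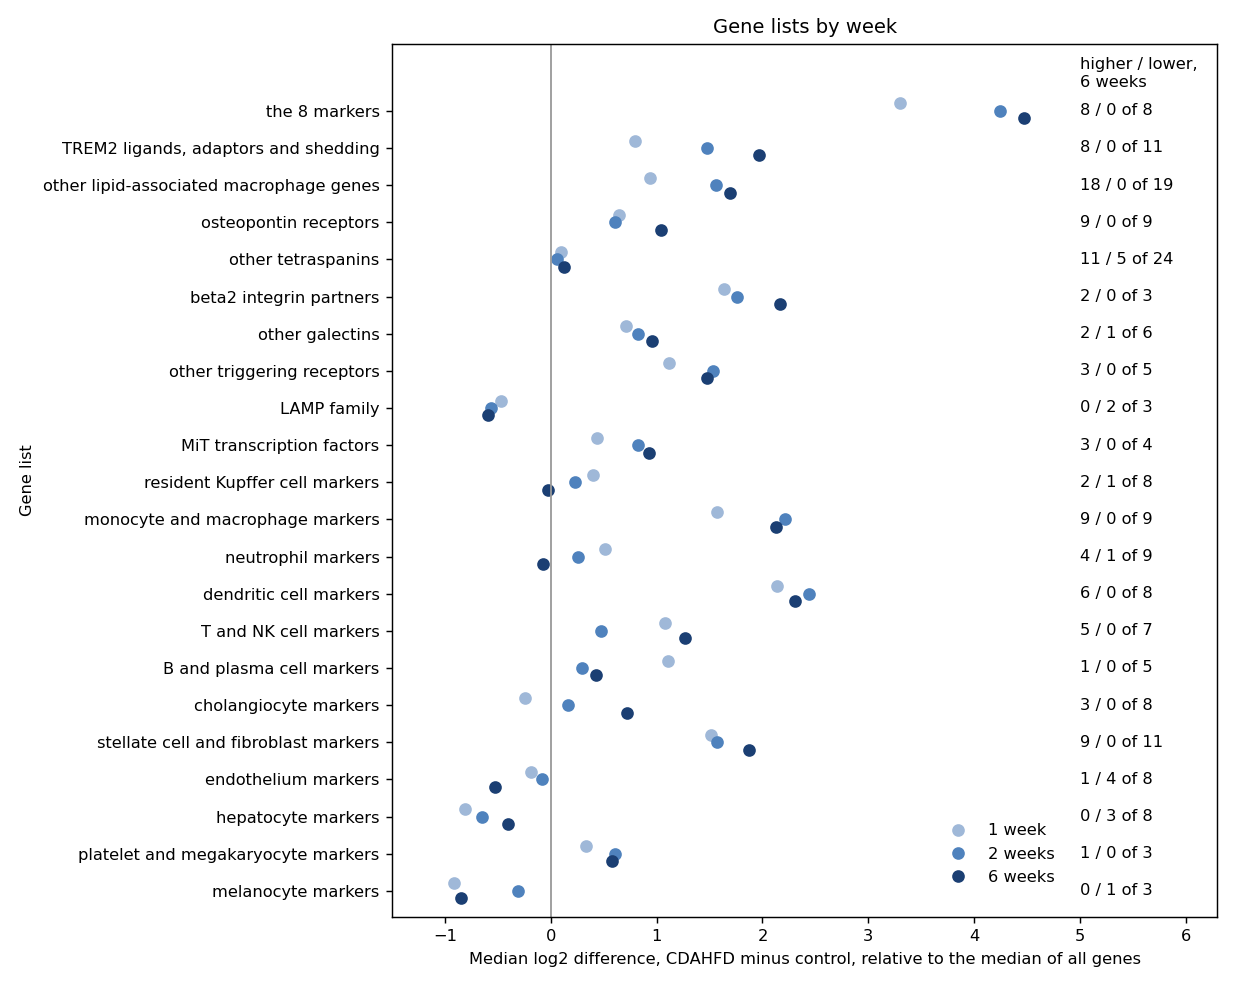
Median log2 difference, CDAHFD minus control with the all-gene median taken off, of each gene list at 1, 2 and 6 weeks, with the genes called higher and lower of those measured at 6 weeks on the right. The 8 markers lie furthest to the right, at 3.30 to 4.47, with genes below background at their fitted values.

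Markers of liver and blood cells moved beside the 8 genes, and their part in these results was not tested. General markers of monocytes and macrophages were higher for 7, 9 and 9 of 9 measured, with medians of 1.57, 2.22 and 2.13, and none was lower at an unadjusted p under 0.05. Their summed scaled intensity ran from 4310 to 8778 on control arrays and from 13894 to 20614 on CDAHFD arrays. Brighter probes weigh more in this sum and in those below. The chemokine receptor Ccr2 of recruited monocytes was below background on all control arrays and at least 8.69-, 8.91- and 7.81-fold higher. Cx3cr1 rose by 3.15 ± 0.20 at 1 week and was at least 35.2-fold higher at 6 weeks, Cd14 rose by 2.83 ± 0.33, 3.43 ± 0.33 and 3.36 ± 0.33, and lysozyme, Lyz2, by 3.08 ± 0.62 and 3.80 ± 0.62 at 2 and 6 weeks.

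Markers of resident Kupffer cells were called higher for 3, 2 and 2 of 8 and lower for 0, 0 and 1, with 1, 0 and 2 lower at an unadjusted p under 0.05. Their median difference was 0.40, 0.23 and -0.02 at the 3 weeks, while their sum ran from 10753 to 20523 on control arrays and from 27439 to 40161 on CDAHFD arrays. Clec4f, a lectin of Kupffer cells, stood at 0.33 ± 0.24, 0.24 ± 0.24 and 0.11 ± 0.24 with no call, though median centring called it at 1 week (adjusted p = 0.0318). Timd4, a receptor of long-resident macrophages, stood at 2.60 ± 0.89 (adjusted p = 0.0425) at 1 week, where 1 of 2 control arrays was above background, and at -2.24 ± 0.89 (adjusted p = 0.0862) at 6 weeks, where 1 of 2 CDAHFD arrays was. The 1-week call ended with median centring, the percentile over all gene probes and quantile normalization (adjusted p = 0.0859, 0.0556 and 0.0751), and normexp called it lower at 6 weeks (-0.91, adjusted p = 0.00605). The scavenger receptor Marco rose by 3.07 ± 0.57, 3.01 ± 0.57 and 3.21 ± 0.57, and Cd5l by 0.71 ± 0.29, 1.33 ± 0.29 and 1.29 ± 0.29, its 1-week call ending with the percentile over all gene probes. Cd163 was called lower at 6 weeks (-2.69 as fitted, adjusted p = 1.2e-04), where it was below background on both CDAHFD arrays, so the size is not exact. That call ended with normexp (-0.49, adjusted p = 0.141).

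CD11c is also a marker of dendritic cells, whose markers were higher for 6 of 8 at each week, with 1, 1 and 0 lower and 2, 2 and 0 lower at an unadjusted p under 0.05. Their median was 2.13, 2.44 and 2.30, or 1.81, 1.89 and 1.97 with genes below background at their bounds. Their sum ran from 3556 to 6103 on control arrays and from 3595 to 4669 on CDAHFD arrays. Within weeks it was lower on both CDAHFD arrays at 1 week (3999 and 4669 against 5571 and 6103). The same held at 2 weeks (3627 and 3844 against 4368 and 4536). At 6 weeks the diets overlapped (3595 and 4323 against 3556 and 3618). Flt3 and Cd209a were below background on all control arrays, Flt3 being at least 2.93-, 3.08- and 3.39-fold higher and Cd209a at least 2.48-, 2.18- and 3.88-fold. Normexp ended all of these calls, with Flt3 at 0.10, 0.42 and 0.49 and Cd209a at 0.09, 0.14 and 0.62, and left 4 of 8 markers called higher at each week. Clec9a rose by 2.68 ± 0.24 and 2.38 ± 0.24 at 2 and 6 weeks.

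Cholangiocytes also make osteopontin, and limma called 0, 0 and 3 of their 8 markers higher and 0 lower at the 3 weeks, with 0, 1 and 3 higher and 2, 0 and 0 lower at an unadjusted p under 0.05. Normexp left none of the 6-week calls and called 4 lower at 1 week, and quantile normalization left 2 and called 3 lower at 1 week. Their sum ran from 338 to 487 on control arrays and from 361 to 691 on CDAHFD arrays. Within weeks the diets overlapped at 1 week (361 and 549 on CDAHFD against 412 and 487). The sum was higher on both CDAHFD arrays at 2 weeks (404 and 446 against 338 and 342) and 6 weeks (554 and 691 against 368 and 402). The part of cholangiocytes in the rise of Spp1 was not tested. Krt19, their defining keratin, stood at 0.60 ± 0.54, 0.63 ± 0.54 and 1.15 ± 0.54 with no call, and Epcam stood at 1.31 ± 0.30 at 6 weeks, or 0.31 with normexp (adjusted p = 0.582). Stellate cell and fibroblast markers were higher for 9 of 11 at each week and none was lower, even at an unadjusted p under 0.05. Their sum ran from 13250 to 17142 on control arrays and from 31926 to 57988 on CDAHFD arrays, with Col1a1 rising by 2.44 ± 0.25, 3.52 ± 0.25 and 4.01 ± 0.25.

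Of 9 neutrophil markers, 3, 4 and 4 were higher and 2, 1 and 1 lower, with S100a8 rising by 2.65 ± 0.29, 2.60 ± 0.29 and 2.96 ± 0.29, S100a9 by 2.87 ± 0.33, 2.55 ± 0.33 and 2.86 ± 0.33, while Camp was lower at each week (-1.51 ± 0.24, -2.97 ± 0.24 and -1.61 ± 0.24). The neutrophil sum ran from 22815 to 30416 on control arrays and from 21069 to 23949 on CDAHFD arrays. Within weeks it was lower on both CDAHFD arrays than on both control arrays at 1 and 2 weeks, and the diets overlapped at 6 weeks. T and NK cell markers were higher for 4, 3 and 5 of 7 and lower for 2, 0 and 0. Klrd1 was at least 6.17- and 6.02-fold higher at 1 and 2 weeks, its 1-week call ending with normexp (adjusted p = 0.0709). Cd3d rose by 1.97 ± 0.34 at 6 weeks. The T and NK cell sum was lower on both CDAHFD arrays at 1 week (2216 and 2401 against 2582 and 2602). It was higher on both at 2 weeks (1839 and 1906 against 1472 and 1497) and 6 weeks (1573 and 2390 against 1318 and 1464). B and plasma cell markers were higher for 4, 1 and 1 of 5, with Cd79b at 1.11 ± 0.15, 0.62 ± 0.15 and 0.68 ± 0.15. Normexp ended the calls of Cd79b at every week (adjusted p = 0.0812, 0.463 and 0.131) and left 0 of 5 higher. Platelet markers were higher for 1 of 3, the chemokine Pf4 (2.59 ± 0.17 at 6 weeks), which macrophages also express. GPNMB is also a protein of pigment cells, and of 3 melanocyte markers measured, Dct was lower at each week (-3.11 ± 0.40, -2.59 ± 0.40 and -6.70 ± 0.40), while Pmel stood at -0.92 ± 0.45 and -0.85 ± 0.45 at 1 and 6 weeks with no call, though normexp called it lower at 1 week (adjusted p = 0.0334).

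Hepatocyte markers were lower for 7, 5 and 3 of 8, and none was higher at an unadjusted p under 0.05. Albumin, Alb, stood at -1.30 ± 0.18, -0.22 ± 0.18 and -0.03 ± 0.18, where quantile normalization gave 0.42 and 0.43 at 2 and 6 weeks, called higher, and Apob at -0.84 ± 0.17, -0.72 ± 0.17 and -0.53 ± 0.17, calls of Apob that quantile normalization ended at every week. Quantile normalization also ended the lower calls of Cps1 at 1 week, Ttr at 2 weeks and F2 at 2 and 6 weeks. Median centring ended those of Cps1 at 1 week and F2 at 6 weeks. The percentile over all gene probes added a lower call of Ttr at 6 weeks (adjusted p = 0.0289). The sum of the hepatocyte markers ran from 238968 to 414308 on control arrays and from 189813 to 238609 on CDAHFD arrays. Endothelial markers were higher for 1 of 8 at each week, Lyve1, and lower for 4 at 6 weeks, among them Oit3 (-1.40 ± 0.16) and Kdr (-0.94 ± 0.15).

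The 8 genes were also set against general macrophage genes on the same array. For each array the mean log2 level of 7 markers above background on all arrays (Adgre1, Cd14, Csf1r, Fcgr1, Lyz2, Mertk and Plac8) was subtracted, a description added after the values had been seen. This leaves out Ccr2 and Cx3cr1, which were below background on some or all control arrays and among the most raised of the 9. Over these markers, Trem2 was higher on CDAHFD by 3.22, 4.32 and 5.32, Itgax by 4.08, 3.62 and 3.97, Lgals3 by 2.38, 2.56 and 2.89, Cd63 by 1.37, 1.88 and 1.85, and Cd68 by 0.61, 1.02 and 1.12. For these 5 genes and Gpnmb, each CDAHFD array lay above all 6 control arrays on this scale. Spp1 stood at -0.46, 0.14 and 0.67 and Cd9 at -0.55, -0.28 and -0.30, and their groups overlapped over all weeks together. Within weeks, both CDAHFD arrays lay above both controls for Spp1 at 6 weeks and below them for Cd9 at 1 and 6 weeks. With all 9 markers, and values below background at the lowest signal well above it, the differences were smaller for Trem2 (2.84, 3.91 and 4.89), Itgax (3.27, 3.21 and 3.54), Lgals3 (2.00, 2.16 and 2.46), Cd63 (0.99, 1.47 and 1.41) and Cd68 (0.23, 0.61 and 0.69). On that scale each CDAHFD array still lay above all 6 controls for these 5 genes. Spp1 then stood at -0.84, -0.26 and 0.24 and Cd9 at -0.93, -0.68 and -0.74, with all 6 CDAHFD arrays below all 6 controls for Cd9. Since Ccr2 and Cx3cr1 enter these means at bounds, the differences over 9 markers are upper limits in that respect.

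**Figure D5:**
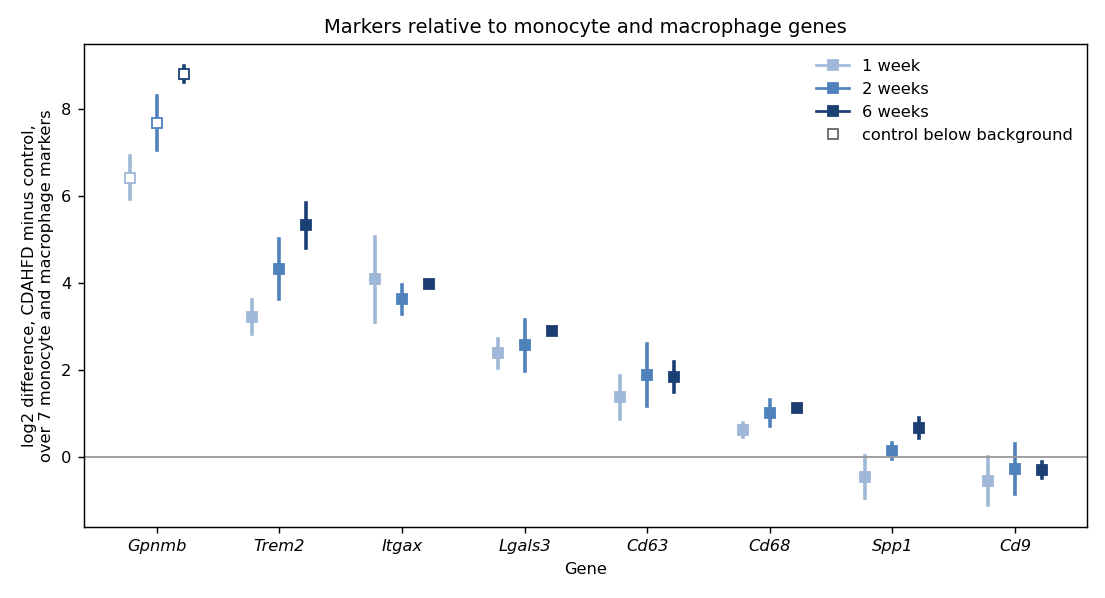
Log2 difference of each marker, CDAHFD minus control, after subtracting on each array the mean log2 level of 7 monocyte and macrophage markers, at 1, 2 and 6 weeks; lines span the smallest to the largest difference between a CDAHFD and a control array. Trem2 stands at 3.22 to 5.32 and Cd9 at -0.55 to -0.28, and open squares mark Gpnmb, whose controls were below background.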

How the data were processed

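Liver RNA on 12 arrays was read as Agilent single-colour spot intensity. The deposited processed intensity was background-subtracted by the scanner software, and the authors' software is version 10.7 per the submitters' processing notes and 11.5.1.1 per the file headers. The deposited flags (other values) for outliers, saturation and signal well above background were used as given. Control spots and outlier spots were left out, and spots of 1 probe were averaged. Log2 intensity minus each array's 75th percentile, over 20137 probes above background on all arrays, was fitted with limma 3.58.1 in R 4.3.3 (6 group means, eBayes with trend and robust, Benjamini-Hochberg, threshold 0.05). A gene needed a probe above background on both arrays of a group, and its brightest probe was kept. Symbols came from RefSeq by accession, and 28658 of 55681 probes had one.

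A bound sets a group below background at the lowest signal well above background. Bounds were not tested, and calls come from the fit without them. Named genes are the 8 markers, the first 2 and up to 4 most changed called genes of each list, and the 3 nearest profiles of each marker. Members and lists were chosen with earlier results of these data known. Alternatives were other scalings, background correction, filters, fits, a replicate block and leaving out each array. The scripts were tested on simulated data. The number of arrays limits the precision.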

Additional observations from a re-analysis of the deposited data

Results flagged for a closer look

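Groups of 2 arrays are too small for a test of single outlying samples. The results here are those whose diet difference changed between weeks (limma, adjusted p under 0.05). Markers were taken by a contrast between 2 weeks. Other named genes were taken by the F test of diet by week, a different rule. Among the 8 markers the difference grew from 1 to 2 weeks for Trem2 by 1.65. From 1 to 6 weeks it grew for Trem2 by 2.73, Gpnmb by 3.01, Spp1 by 1.75, Cd68 by 1.13 and Cd63 by 1.1. The F test did not call Spp1, Cd63 and Cd68 (adjusted p = 0.0553, 0.0553 and 0.0718). Among the other named genes the diet difference grew from 1 to 6 weeks for Capg by 2.15 ± 0.21 (adjusted p = 0.00373 by the contrast) and Ms4a7 by 2.08 ± 0.36. It also grew for Fabp5 by 2.14 ± 0.37, Cx3cr1 by 1.92 ± 0.28 and Pf4 by 1.5 ± 0.24. It went the other way for Cd163 (-2.89 ± 0.47), Oit3 (-1.27 ± 0.23) and Dct (-3.66 ± 0.56). The values of Gpnmb, Cx3cr1 and Cd163 are as fitted and are no exact sizes. Gpnmb was below background on all control arrays and Cx3cr1 on both at 6 weeks, and Cd163 was below it on both control arrays at 1 week and both CDAHFD arrays at 6 weeks. The 6-week arrays lie on a slide of their own, with both diets on it.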

How the results depend on the processing

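The count of markers called higher was 8 at each week under the alternatives that measured all 8, except for 7 at 1 week without 1 array. With only probes above background on all arrays, 6 of 6 were called. The diet difference changed between weeks for 2 markers, for 4 with the percentile over all gene probes and for 6 with normexp, and for 1 to 3 when 1 array was left out. Levels changed over the weeks within CDAHFD for 4, and for 0 to 5 when 1 array was left out. Within control the count was 0, and 1 with the percentile over all gene probes, 1 with only probes above background on all arrays, 1 with the replicate block, and 0 to 1 when 1 array was left out. Replicate 1 lay in slide column 1 and replicate 2 in slide column 2 in every group. Replicate number and slide position therefore cannot be told apart. Same-numbered deviations correlated between -0.143 and 0.220, with 4 of 15 pairs of groups over 0.1, which does not settle whether the arrays were paired. The replicate block changed no diet call of a marker at any week. Normexp on mean signals was not run, because the files used here give median signals; normexp on those is the value above. The cause of these shifts was not tested.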
